A study of Mus musculus with 4 samples.

Results

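Cxcl1, Cxcl2, Cxcl5 and Ccl20 are 4 of the 50766 genes in the deposited matrices, and they were followed by symbol through every cell class and library. The series profiled single cells from livers of Sox9EGFP mice, in groups that the labels define by operation: 2 libraries taken 7 days after sham surgery and 2 taken 7 days after bile duct ligation (BDL), which ties off the duct that drains the liver. All 4 libraries share the Sox9EGFP genotype, so both groups carry the reporter. By label they are biliary epithelial cells (BECs), the lining of the bile ducts, and each library carries a name of its own. Replicate numbers here follow sample order, are not in the labels and pair nothing across groups. How they were isolated is not given in the sources used here.

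Chemokines are small secreted proteins that draw leukocytes along a gradient. Cxcl1, Cxcl2 and Cxcl5 belong to the CXC chemokines with an ELR motif, which act on the receptor Cxcr2 and are best known for bringing neutrophils into tissue. Ccl20 is a CC chemokine of mucosal surfaces whose receptor is Ccr6, carried by Th17 cells, some B cells and some dendritic cells. In epithelia all 4 are textbook outputs of NF-kB signalling downstream of interleukin-1, tumour necrosis factor, Toll-like receptors and interleukin-17.

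The promoters of the members are shown because all 4 moved together in BEC-like cells and because NF-kB is the transcription factor usually named for them. Windows for 3 of the 4 genes (Cxcl1, Cxcl2 and Ccl20) were read from RefSeq on build GRCm38.p6, and the 250 bases before the annotated start are printed 5′ to 3′. All 3 lie on the plus strand, at chr5:90890995-90891244 for Cxcl1, chr5:90903649-90903898 for Cxcl2 and chr1:83116516-83116765 for Ccl20. Capitals mark every match, on either strand, to the NF-kB-type motif GGGNNNTTCC, where matches that overlap run together.
Cxcl1: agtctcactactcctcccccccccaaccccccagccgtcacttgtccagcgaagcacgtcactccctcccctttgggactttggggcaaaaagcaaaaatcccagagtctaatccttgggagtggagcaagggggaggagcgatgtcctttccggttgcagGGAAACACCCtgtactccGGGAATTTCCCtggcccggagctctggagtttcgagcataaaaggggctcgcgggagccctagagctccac
Cxcl2: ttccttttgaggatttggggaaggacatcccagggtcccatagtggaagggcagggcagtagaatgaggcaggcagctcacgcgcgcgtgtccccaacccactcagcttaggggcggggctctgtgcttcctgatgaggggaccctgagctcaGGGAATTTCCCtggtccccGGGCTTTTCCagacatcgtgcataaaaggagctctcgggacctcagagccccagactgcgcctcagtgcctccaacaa
Ccl20: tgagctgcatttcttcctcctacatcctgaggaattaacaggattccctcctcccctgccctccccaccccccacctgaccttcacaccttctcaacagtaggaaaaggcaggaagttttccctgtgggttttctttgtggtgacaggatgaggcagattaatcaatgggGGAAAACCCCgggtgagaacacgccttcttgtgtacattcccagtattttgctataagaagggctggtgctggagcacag
In Cxcl1 the match GGGAATTTCC began 71 bases before the start and overlapped a match on the other strand, and a separate match on the other strand began 89 bases before the start. In Cxcl2 the same GGGAATTTCC began 97 bases before the start, and GGGCTTTTCC followed at 78 bases. Ccl20 had 1 match, on the other strand, 80 bases before the start. Of all 32851 RefSeq promoter windows of this length, 1527 (4.65%) held at least 1 match. A match describes these letters only and shows no binding.

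Along mouse chromosome 5 in the same annotation, the protein-coding genes Cxcl5, Ppbp, Pf4, Cxcl3, Cxcl15, Cxcl1 and Cxcl2 stand in that order as an unbroken run of 7, while Ccl20 is on chromosome 1.

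The group name written inside the deposited cell tables contradicted the sample label for sham replicate 2 (BDL in the table) and for BDL replicate 2 (sham in the table). Groups here are those of the sample labels, and results are also given for sham replicate 1 against BDL replicate 1, the libraries on which both sources match. BDL replicate 2 also stood apart in Xist, at 1951 CPM (UMI counts scaled to a common total) in BEC-like cells against 8.08 to 10.2 in the other 3 libraries. The libraries held 2089 to 4065 cells, and no cell barcode was shared between them. Depth differed with the group: the median was 3260 and 2610 UMIs (unique molecular identifiers, one per captured transcript) per cell after sham surgery and 7058 and 7793 after BDL. Cells were classed by the UMIs of marker lists, which gave 2518 and 2487 BEC-like cells after sham surgery and 1980 and 3854 after BDL. All 11 biliary markers, among them Epcam, Krt19, Sox9 and Spp1, were detected in the BEC-like cells of every library, at 11839 to 13935 CPM together. The largest other class was mesenchymal-like, with 169, 353, 70 and 124 cells in the same order, and endothelial-like cells numbered 34, 85, 16 and 28. Macrophage-like cells numbered at most 11 in a library, and a single neutrophil-like cell was found, in sham replicate 2.

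All 4 chemokines were higher in BEC-like cells after BDL. By log2 fold change the smallest difference was that of Cxcl1 and the largest that of Ccl20, the gene with the fewest UMIs in the sham cells. Levels in tested sums are CPM scaled by edgeR's TMM method. Across all 16023 genes tested in these sums, 25.7% passed the same test at an adjusted p under 0.05, with 13.5% higher and 12.2% lower in BDL, and 33.6% had both BDL libraries above both sham libraries, so 4 of 4 stands against a broad background of change.

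Ccl20, the ligand of Ccr6, measured 11.7 and 15.4 CPM after sham surgery and 148 and 108 CPM after BDL. Both BDL libraries lay far above both sham libraries, and the groups did not overlap. The log2 fold change was 3.24 ± 0.22 (SE, n = 2 and 2), with an adjusted p of 0.000619 by edgeR's quasi-likelihood test. Cxcl5, a Cxcr2 ligand typical of epithelial cells, measured 63.8 and 119 CPM after sham surgery and 669 and 670 CPM after BDL. The sham libraries differed from each other more than the BDL libraries did, and again the groups did not overlap. Its log2 fold change was 2.87 ± 0.28 (SE), with an edgeR adjusted p of 0.00165.

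Cxcl2, also called MIP-2, had 431 and 477 CPM after sham surgery against 1766 and 1302 CPM after BDL. Its log2 fold change was 1.76 ± 0.18 (SE), with an edgeR adjusted p of 0.00169. Cxcl1, also called KC, had 349 and 363 CPM against 869 and 643 CPM. The log2 fold change of Cxcl1 was 1.09 ± 0.16 (SE), with an edgeR adjusted p of 0.00635. For Cxcl1, Cxcl2 and Ccl20 BDL replicate 1 was the higher of the BDL libraries, and for Cxcl5 the BDL libraries were nearly equal. Ordered among all genes by log2 fold change, Ccl20 was the 73rd highest rise, Cxcl5 the 110th, Cxcl2 the 456th and Cxcl1 the 1062nd.

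All 4 differences kept their direction and passed the test under each of the 14 other fits tried. The log2 fold changes ranged over these fits from 0.85 to 1.57 for Cxcl1, from 1.32 to 3.23 for Cxcl2, from 2.43 to 4.51 for Cxcl5 and from 2.77 to 4.90 for Ccl20. The highest adjusted p of each gene came without sham replicate 1, and for Cxcl1 it was 0.0466. In sham replicate 1 against BDL replicate 1 alone, the log2 ratios were 1.22, 1.95, 3.30 and 3.57 for Cxcl1, Cxcl2, Cxcl5 and Ccl20. Between the libraries whose table names contradict their labels they were 0.88, 1.51, 2.54 and 2.87. Each library was spread over 8 sublibraries, and in 8 of 8 sublibraries both BDL libraries exceeded both sham libraries for each of the 4 genes. The sublibraries are parts of the same 4 libraries and not replicates. The share of all genes that would do the same was not computed. The log2 ratio within a sublibrary ran from 0.76 to 1.24 for Cxcl1 and from 2.48 to 3.76 for Ccl20.

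Markers of other cells in the BEC-like sums moved as follows. The 10 neutrophil markers together made up 3.47, 1.82, 0.951 and 3.50 CPM, with Retnlg and Ly6g at 0 in every library. Within this list Ltf was at 0.210 and 0.121 after sham surgery and 0.747 and 3.12 after BDL. Csf3r went the other way, at 1.47 and 1.34 against 0 and 0.155. The 10 macrophage markers were at 42.1 and 38.1 after sham surgery and 40.8 and 43.0 after BDL. Most of this was Csf1r, at 29.5 and 28.3 against 34.2 and 37.0, while Cd68 was at 12.0 and 9.23 against 5.57 and 5.20. The 10 hepatocyte markers were higher in the sham libraries, at 1144 and 1139 against 153 and 117, and the 11 mesenchymal markers likewise, at 102 and 115 against 19.97 and 32.3. In both lists sham replicate 2 lay with sham replicate 1 and BDL replicate 2 with BDL replicate 1, as the sample labels have it and unlike the names in the cell tables. Reln made up most of the sham mesenchymal sum, at 77.8 and 76.5 against 5.77 and 8.69 CPM. Dcn was also lower in both BDL libraries, at 6.73 and 12.0 against 1.49 and 2.69 CPM, as were Lum, Pdgfra, Lrat and Colec11. Col1a1 overlapped between the groups, at 3.05 and 3.04 against 2.79 and 5.41, as did Col1a2, Col3a1, Pdgfrb and Acta2. None of these hepatocyte and mesenchymal markers was at 0 in all libraries. The part of the hepatocyte and mesenchymal lists in the summed levels was not tested. With the sums thinned to the depth of the shallowest library, the log2 fold changes were 1.07 for Cxcl1, 1.75 for Cxcl2, 2.83 for Cxcl5 and 3.22 for Ccl20, each past the threshold in edgeR.

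**Figure D1:**
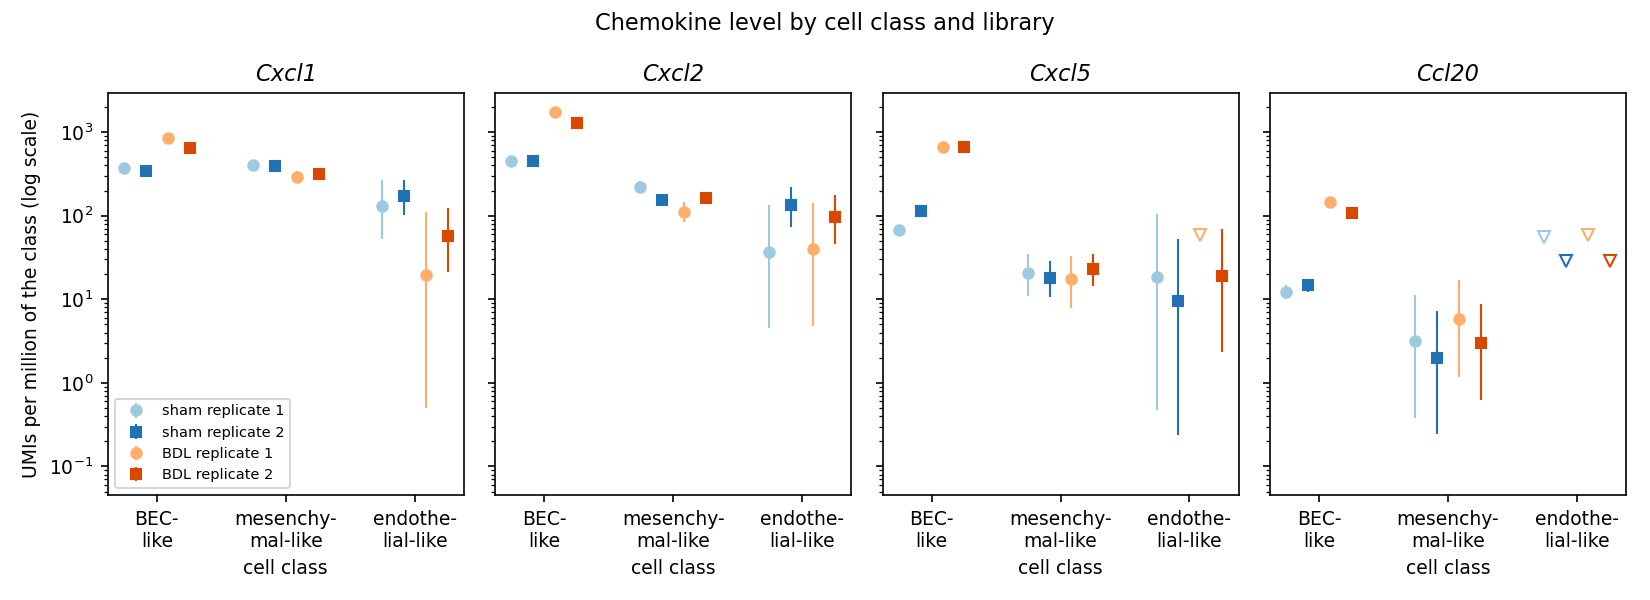
Level of each chemokine by cell class, in CPM of the class without TMM scaling (log axis), 1 point per library with its exact Poisson 95% interval. Open triangles mark classes with 0 UMIs, drawn at the level 3 counts would give. Of the 3 classes plotted, the BEC-like class is the one in which both BDL libraries sit above both sham libraries for all 4 genes.

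By cell class the 4 genes were distributed differently. Levels by class and subcluster are CPM of that class or subcluster without TMM scaling. In the sham libraries, Cxcl1 reached 399 and 392 CPM in mesenchymal-like cells against 369 and 346 in BEC-like cells. The exact Poisson intervals of these classes overlapped in both sham libraries (351 to 451 against 357 to 381, and 355 to 433 against 333 to 359), whereas endothelial-like cells were lower, at 130 and 171. After BDL the order changed: BEC-like cells were at 861 and 638, mesenchymal-like cells at 288 and 317 and endothelial-like cells at 19.7 and 57.4, the last from 1 and 6 UMIs.

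Of the named classes, Cxcl2 was highest in BEC-like cells in both groups, apart from a handful of macrophage-like cells in BDL replicate 2. Mesenchymal-like cells held 220 and 154 CPM after sham surgery and 111 and 161 after BDL, ranges that overlap. The 17 macrophage-like cells of the BDL libraries held 61 Cxcl2 UMIs, or 1105 CPM (exact Poisson 95% interval 845 to 1420), of which 56 UMIs came from the 11 cells of BDL replicate 2. The same 17 cells held 1 UMI of Cxcl1 and none of Cxcl5 or Ccl20, for either of which 3 counts, the limit used here for a count of 0, would be 54.4 CPM.

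In BEC-like cells Cxcl5 was at 67.3, 114, 663 and 665 CPM and Ccl20 at 12.3, 14.7, 146 and 107 CPM, in the order sham 1, sham 2, BDL 1 and BDL 2. Mesenchymal-like cells held 20.4, 18.0, 17.3 and 23.0 CPM of Cxcl5 in the same order, below the BEC-like level in every library, and endothelial-like cells had 2 UMIs in each group. Ccl20 had 2, 2, 3 and 3 UMIs in mesenchymal-like cells and none in the 119 sham and 44 BDL endothelial-like cells, where 3 counts would be 18.8 CPM in the sham and 19.3 CPM in the BDL group. The ratio between the chemokines also differed between BEC-like and mesenchymal-like cells: in BDL libraries there were 2.03 and 2.03 Cxcl2 UMIs per Cxcl1 UMI in BEC-like cells and 0.387 and 0.508 in mesenchymal-like cells. In endothelial-like cells of the BDL libraries this ratio was 2 and 1.67, from only 1 and 6 Cxcl1 UMIs. For Cxcl5 per Cxcl1 the BDL ratios were 0.770 and 1.04 in BEC-like cells against 0.0600 and 0.0726 in mesenchymal-like cells.

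In mesenchymal-like cells none of the 3 testable genes passed the edgeR test, in which 9.98% of 8249 genes did, 3.61% higher and 6.36% lower (without sham replicate 2 no gene passed edgeR, with 1104 at an unadjusted p under 0.05). Cxcl1 stood at 402 and 438 TMM-scaled CPM after sham surgery and 298 and 316 CPM after BDL. Its log2 difference was -0.45 ± 0.22 (SE), with an edgeR adjusted p of 0.223. Cxcl2 had 221 and 172 CPM against 115 and 160 CPM. The log2 difference was -0.49 ± 0.25 (SE), with an edgeR adjusted p of 0.263. Cxcl5 had 20.6 and 20.1 CPM against 17.9 and 22.9 CPM, a log2 difference of 0.04 ± 0.42 (SE) with an edgeR adjusted p of 0.972. Ccl20 did not pass the filter on low counts.

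The effect of BDL itself differed between the classes for 3 of the 4 genes. In an edgeR fit with each library as a block, in which 8.06% of 15101 genes passed, 4.26% with a higher and 3.79% with a lower effect in BEC-like cells, the effect in BEC-like cells exceeded that in mesenchymal-like cells by 1.48 ± 0.24 (SE) on the log2 scale for Cxcl1, with an adjusted p of 3.38e-05. The excess was 2.17 ± 0.28 for Cxcl2 (edgeR adjusted p 4.55e-07) and 2.78 ± 0.42 for Cxcl5 (edgeR adjusted p 1.12e-05). For Ccl20 it was 2.50 ± 0.99 and did not pass (edgeR adjusted p 0.132), with 10 UMIs in all mesenchymal-like cells. These calls depend on how cells are classed. When whole Leiden clusters were named, the mesenchymal-like clusters took in 74 cells with markers of more than 1 class, 14 cells classed BEC-like by their own markers and 10 cells of no class. In these clusters Cxcl5 rose by 1.88 (edgeR adjusted p 0.0118) and Ccl20 by 2.86 (edgeR adjusted p 0.0319). The excess in BEC-like cells was then 0.96 for Cxcl5 (edgeR adjusted p 0.141) and 0.23 for Ccl20 (edgeR adjusted p 0.937). Under a stricter marker rule the excess was 0.79 for Cxcl1 (edgeR adjusted p 0.222) and 1.25 for Cxcl2 (edgeR adjusted p 0.0679).

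Single cells show in what form the summed levels differed. To remove the difference in depth, each BEC-like cell was thinned at random to 1000 UMIs, which left out 71 and 95 shallower sham cells and no BDL cell. Cxcl2 was then detected in 17.4% and 15.6% of sham cells and in 58.3% and 53.3% of BDL cells. Cxcl1 was detected in 21.9% and 21.0% against 43.9% and 37.9%, Cxcl5 in 4.54% and 6.40% against 34.6% and 37.2%, and Ccl20 in 0.899% and 0.920% against 11.3% and 7.91%. For each gene the exact permutation test over the 4 libraries gave p = 0.33, two-sided, the smallest that 2 against 2 allows. Without thinning, Cxcl2 was detected in 26.4% and 22.4% of sham cells and in 81.3% and 80.9% of BDL cells.

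For comparison, the 69 thinned endothelial-like cells of the sham group had a Cxcl1 UMI in 8.70%, a Cxcl2 UMI in 8.70%, a Cxcl5 UMI in 1.45% and no Ccl20 UMI (exact binomial upper limit 5.21%). The 43 of the BDL group had 2.33%, 9.30%, 0% and 0%, the last 2 with an upper limit of 8.22%. Median depth before thinning was 1153 and 2762.5 UMIs in these cells and 3071 and 7602 in BEC-like cells of the same groups. The BEC-like shares lay above these for Cxcl1, Cxcl2 and Cxcl5 in the BDL group. For Ccl20 the pooled BDL share, 9.07% (exact binomial 95% interval 8.34% to 9.83%), lay above the 8.22% limit, while BDL replicate 2 alone, at 7.91%, did not. The sham share of Ccl20 lay under the limit that the endothelial-like cells set, although its summed level in sham BEC-like cells, 13.4 CPM (exact Poisson 95% interval 11.8 to 15.2), was above the 2.44 (0.665 to 6.25) of sham mesenchymal-like cells.

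The mean number of UMIs among cells with a UMI is given as a description, since it cannot fall under 1 and lies near that floor for Cxcl1, Cxcl5 and Ccl20. After thinning, positive cells held on average 2.85 and 2.83 Cxcl2 UMIs after sham surgery and 2.91 and 2.55 after BDL. For Cxcl1 the means were 1.87 and 1.68 against 1.89 and 1.74. For Cxcl5 they were 1.66 and 1.63 against 1.85 and 1.87, both BDL libraries above both sham libraries, and for Ccl20 they were 1.45 and 1.41 against 1.31 and 1.36, both below.

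**Figure D2:**
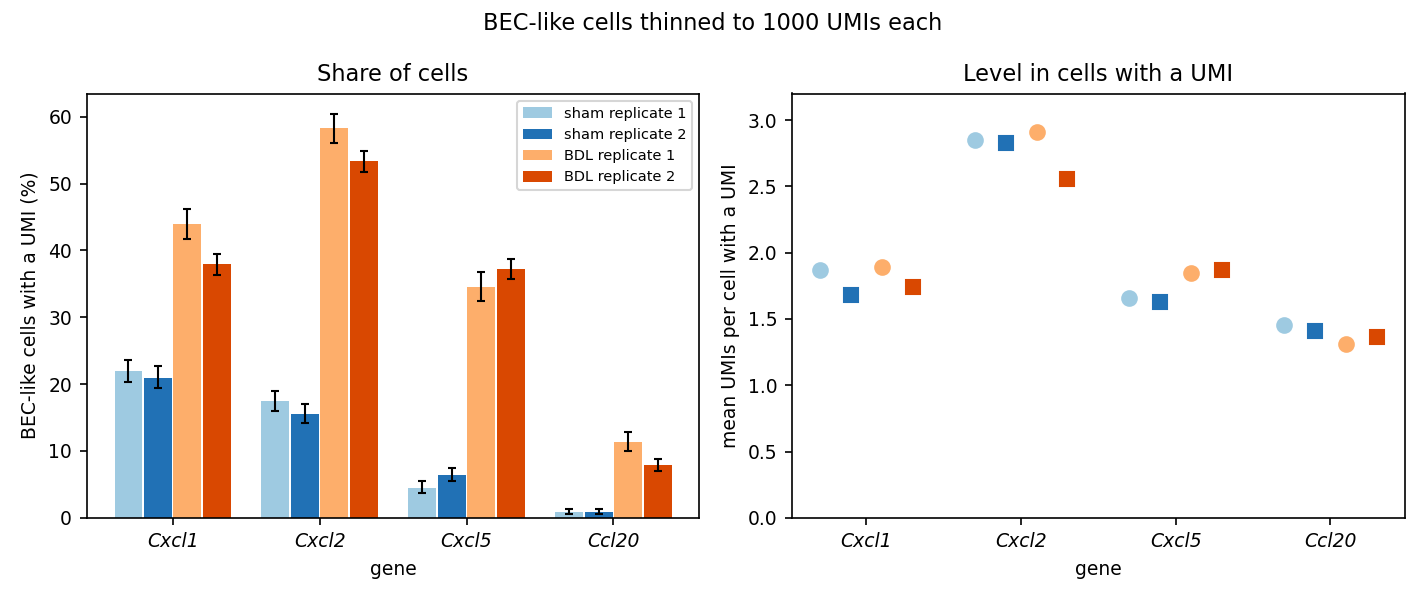
Left, share of BEC-like cells with at least 1 UMI of each chemokine, 1 bar per library with exact binomial 95% intervals. Right, mean UMIs per cell among cells with a UMI, 1 point per library. For every gene both BDL bars stand above both sham bars, while the means of positive cells differ in no common direction.

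Cells with several of the chemokines were more frequent after BDL, which the higher share of each gene would by itself bring about. The number that the single shares alone would give was not computed. At 1000 UMIs per cell, 67.9% and 69.0% of sham BEC-like cells had none of the 4, against 24.3% and 26.2% of BDL cells. Cells with exactly 3 of the 4 made up 1.68% and 2.09% after sham surgery and 17.1% and 14.6% after BDL, and all 4 were found in 2 cells and 1 cell against 67 and 86 cells.

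**Figure D3:**
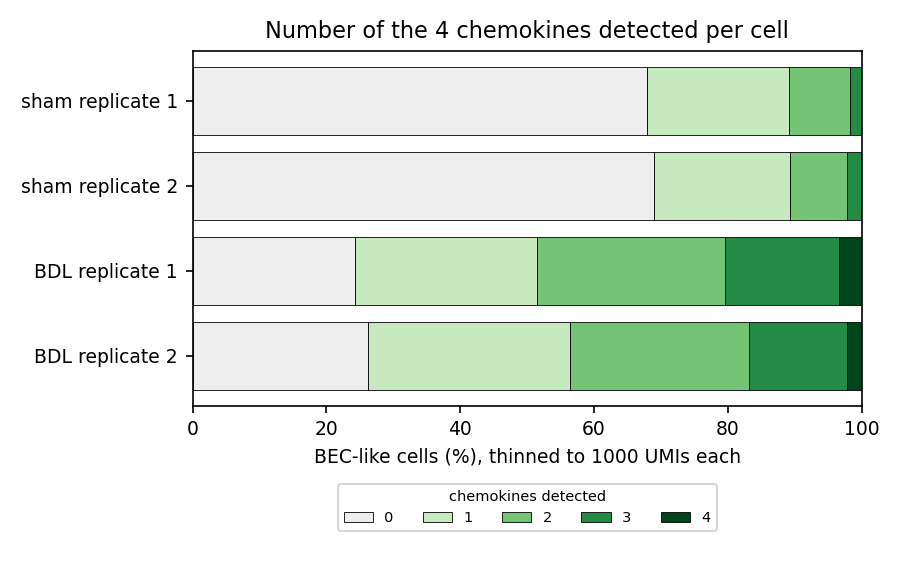
Share of BEC-like cells, thinned to 1000 UMIs each, in which 0, 1, 2, 3 or 4 of the chemokines were detected, 1 bar per library. Cells with none make up 67.9% and 69.0% after sham surgery and 24.3% and 26.2% after BDL.

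Within a library, detection of one chemokine went with detection of another. Among sham cells with a Cxcl1 UMI, 39.2% and 36.5% also had Cxcl2, against 11.3% and 10% of those without. Cxcl5 was found in 16.4% and 22.0% of sham cells with Cxcl2 and in 2.03% and 3.51% of those without. After BDL the same comparison gave 44.0% and 48.6% against 21.4% and 24.2%. Ccl20 and Cxcl5, encoded on different chromosomes, behaved likewise in BDL cells, where Cxcl5 was present in 54.9% and 59.3% of cells with Ccl20 and in 32.0% and 35.3% of cells without. In sham cells only 22 cells of each library had Ccl20 after thinning, and 18.2% and 4.55% of them had Cxcl5, too few to set against the 4.41% and 6.41% of the others. All cells entered at 1000 UMIs, and co-detection within the subclusters described next was not computed.

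BEC-like cells were clustered again with the 4 chemokines left out of the genes used, which gave 9 subclusters, known here by number and leading genes. Most subclusters held mainly cells of 1 group, though 8 of the 9 held some of both, and their sizes are not reported as findings. In the sham libraries most transcripts of Cxcl2, Cxcl5 and Ccl20 came from subcluster 3, led by Sgcd, Tmeff2 and Car4, while those of Cxcl1 were divided between subclusters 2 and 3. Subcluster 3 held 21.1% and 27.9% of sham BEC-like cells but 66.6% and 82.3% of their Cxcl2 UMIs, 81.4% and 91.4% of Cxcl5, 68.4% and 88.4% of Ccl20 and 39.6% and 56.8% of Cxcl1. Cxcl2 there reached 1488 and 1261 CPM, inside the range of the BDL subclusters, and Cxcl5 reached 270 and 350. Subcluster 2, led by Kcnma1, Alb and Stxbp5l, held 59.5% and 59.9% of sham BEC-like cells, with 52.3% and 37.9% of their Cxcl1 UMIs, Cxcl2 at 200 and 101 CPM and Cxcl5 at 12.7 and 7.58 CPM. Ccl20 stood at 41.4 and 43.7 CPM in subcluster 3 and at 5.89 and 2.66 in subcluster 2.

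In the BDL libraries the highest Cxcl2 levels were in subcluster 5, led by Dmbt1 and Anxa1, at 2603 and 1681 CPM. Subcluster 1, led by Nos2, Cpe and Ccl2, was the largest in both, and had Cxcl2 at 2175 and 1364. Cxcl5 did not separate them clearly, at 872 and 750 in subcluster 1 against 886 and 816 in subcluster 5. Ccl20 did: it was at 209 and 134 in subcluster 1 and at 81.4 and 60.8 in subcluster 5. Cycling cells, subcluster 7 with Mki67 and Top2a, had Ccl20 at 167 and 177 and Cxcl2 at 1654 and 1658. In BDL replicate 2 they were level with subcluster 5 in Cxcl2, with overlapping counting intervals of 1599 to 1719 and 1650 to 1714. The lowest levels among BDL subclusters of at least 100 cells were in subcluster 6, led by Fos, Rfx2 and Foxj1, with Cxcl2 at 332 and 237, Cxcl1 at 261 and 237 and Cxcl5 at 123 and 75.2. For Ccl20, subcluster 6 at 29.6 and 28.4 was level with subcluster 4 at 43.6 and 28.2, whose counting intervals overlap.

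Subcluster 4, led by Pde4c, Iqch and Dnah12, was the only subcluster with at least 100 cells in every library, with 454, 288, 230 and 113 cells, and so allowed the groups to be compared within 1 subcluster. Cxcl2 stood there at 39.0 and 92.6 CPM after sham surgery and at 589 and 620 after BDL. Cxcl5 was at 5.49 and 8.20 against 153 and 148, Cxcl1 at 120 and 151 against 400 and 426, and Ccl20 had 2 UMIs and 1 UMI against 71 and 24. Both BDL libraries were above both sham libraries for each gene, and the share of all genes that separate so was not computed within this subcluster. The edgeR log2 fold changes were 1.57 ± 0.20 for Cxcl1, 3.23 ± 0.30 for Cxcl2, 4.51 ± 0.30 for Cxcl5 and 4.90 ± 0.58 for Ccl20, with adjusted p from 4.16e-08 to 4.85e-05. In this fit, chosen after the data were examined, 1783 of 10730 genes passed. The value for Ccl20 rests on 3 sham UMIs and depends on the fit's prior count. In subcluster 3, with 27 and 14 BDL cells, none of the 4 chemokines had both BDL libraries above both sham libraries. Cxcl1 was at 718 and 661 CPM there after sham surgery and 514 and 390 after BDL. Cxcl2 was at 1488 and 1261 against 998 and 1449, and Cxcl5 at 270 and 350 against 340 and 204. Ccl20 was at 41.4 and 43.7 against 22.7 and 18.6, the BDL values from 3 UMIs and 1 UMI. The remaining subclusters had fewer cells still in 1 of the groups.

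**Figure D4:**
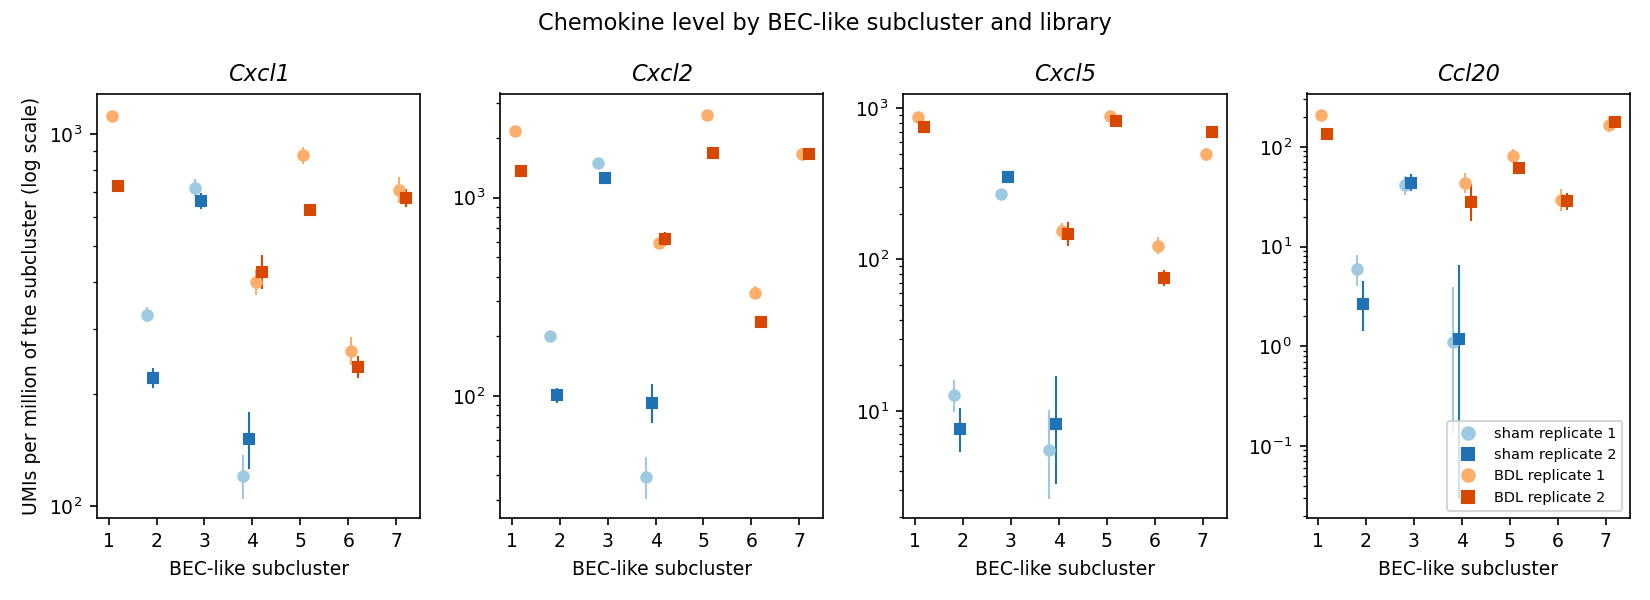
Level of each chemokine in BEC-like subclusters 1 to 7, in CPM of the subcluster without TMM scaling (log axis), 1 point per library with its exact Poisson 95% interval, for library and subcluster pairs of at least 30 cells. Sham subcluster 3 sits near the BDL subclusters for Cxcl1 and Cxcl2, and in subcluster 4 both BDL libraries sit above both sham libraries for all 4 genes.

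Over the 10 sums of at least 30 cells formed by BDL library and subcluster, the genes whose log2(CPM + 1) followed each chemokine most closely were listed among 6410 genes. The sums share libraries and the correlations are descriptions. Cxcl1 was followed most closely by Slc7a1 (Pearson r = 0.98), Gm16685 (0.98) and Itgav (0.97). Cxcl2 was followed by Rap2b (0.98), Slc7a1 (0.98) and Cxcl1 itself (0.97). Cxcl5 was followed by Plscr1 (0.98), Vcam1 (0.98) and Tspan8 (0.98), and Ccl20 by Iars1 (0.97), Slc5a1 (0.97) and Ssx2ip (0.97). Among the chemokines, Cxcl5 correlated with Cxcl1 at 0.94 and with Cxcl2 at 0.97, and Ccl20 with the other three at 0.82 to 0.86. Many other genes followed as closely: for Cxcl5, Cxcl2 ranked 14th and Cxcl1 56th. For Ccl20, Cxcl1 ranked 135th, Cxcl5 175th and Cxcl2 216th.

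The rest of the chromosome 5 run shared the direction where it could be tested. Cxcl3, a further Cxcr2 ligand, rose from 4.39 and 6.11 CPM to 26.0 and 29.3 CPM in BEC-like cells, a log2 fold change of 2.41 ± 0.21 (SE) with an edgeR adjusted p of 0.0011. Pf4, named here after its values were seen, rose from 1.30 and 1.02 CPM to 4.11 and 2.71 CPM, with a log2 fold change of 1.52 ± 0.41 (SE) and an edgeR adjusted p of 0.0377. It did not pass under 5 of the alternatives, among them the fits without either sham library and without BDL replicate 1. Ppbp had 2, 1, 10 and 8 UMIs and Cxcl15 none, so neither was tested.

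Of 12 other CXC chemokines, 7 were tested in BEC-like cells, of which 4 rose and 1 fell, beside 13.5% higher and 12.2% lower among all genes tested, with a median log2 fold change of 1.48 against -0.03 over all genes tested. Cxcl16, a membrane-bound ligand of Cxcr6, rose from 188 and 171 CPM to 455 and 548 CPM (log2 fold change 1.48, edgeR adjusted p 0.00132). Cxcl12, the ligand of Cxcr4, fell by 1.82 on the log2 scale (edgeR adjusted p 0.00822), from 5.68 and 7.64 CPM to 1.71 and 1.99 CPM, and missed the threshold without sham replicate 2 (edgeR adjusted p 0.0529). Of 19 other CC, XC and CX3C chemokines, 7 were tested and 5 rose, beside 13.5% higher among all genes tested, with a median of 2.32. The monocyte chemokine Ccl2 rose from 18.0 and 13.0 CPM to 525 and 442 CPM (log2 fold change 4.95, edgeR adjusted p 0.000323), Ccl7, which like Ccl2 acts on Ccr2, from 6 and 2 UMIs to 108 and 173 UMIs (3.82, edgeR adjusted p 0.00273), and Ccl5 from 5 and 5 UMIs to 43 and 106 UMIs (2.46, edgeR adjusted p 0.00879). Ccl5 missed the threshold without sham replicate 1 (edgeR adjusted p 0.0712).

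The receptors of the 4 chemokines were almost undetected in BEC-like cells. Cxcr2 had 1, 0, 0 and 2 UMIs and Ccr6 had 4, 1, 2 and 0 UMIs in the 4 libraries. Of 22 chemokine receptors 2 passed the filter on low counts, and only Ackr3, a scavenger of Cxcl12, was called, lower in BDL by edgeR (log2 fold change -2.13, adjusted p 0.0219). It rested on 18, 13, 6 and 12 UMIs, and the call was lost with DESeq2 and without any of sham replicate 1, sham replicate 2 and BDL replicate 2 (adjusted p 0.0876 to 0.185).

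Of 20 receptors and adaptors that act upstream of these chemokines, all were tested, 5 rose and 1 fell, beside 13.5% higher and 12.2% lower among all genes tested, with a median log2 fold change of 0.37. Tnfrsf1b, the second receptor for tumour necrosis factor, rose from 19.4 and 29.2 CPM to 99.1 and 120 CPM, a log2 fold change of 2.18 (edgeR adjusted p 0.00149). Cd14, a co-receptor for bacterial lipopolysaccharide, rose by 1.27 (edgeR adjusted p 0.00205) and Il1r1, the interleukin-1 receptor, by 1.21 (edgeR adjusted p 0.00524), from 35.9 and 50.6 CPM to 103 and 97.3 CPM. The gene that fell was Il17re, a further chain of the interleukin-17 receptor family, named here after its values were seen (29.5 and 30.4 CPM against 16.8 and 20.5 CPM, log2 difference -0.68, edgeR adjusted p 0.0226). Its call was lost without sham replicate 1 (edgeR adjusted p 0.112) and without sham replicate 2 (edgeR adjusted p 0.128), and in subcluster 4 alone its sign changed (0.19, edgeR adjusted p 0.734). The chains Il17ra and Il17rc were not called: Il17ra was at 29.1 and 28.8 CPM against 31.6 and 28.0 CPM (log2 difference 0.04 ± 0.13, edgeR adjusted p 0.849), and Il17rc was at 15.0 and 13.0 CPM against 11.7 and 11.9 CPM (-0.25 ± 0.17, edgeR adjusted p 0.304).

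Among 15 NF-kB subunits and feedback genes, all tested, 5 rose and 1 fell, beside 13.5% higher and 12.2% lower among all genes tested, with a median of 0.29. Tnfaip3, which encodes the NF-kB inhibitor A20, rose from 156 and 178 CPM to 603 and 677 CPM (log2 fold change 1.94, edgeR adjusted p 0.000634), and its partner Tnip1 rose by 0.80 (edgeR adjusted p 0.00691), missing the threshold without sham replicate 1 (edgeR adjusted p 0.0505). Zfp36, whose protein tristetraprolin promotes decay of cytokine messenger RNAs, fell by 1.27 on the log2 scale (edgeR adjusted p 0.00108), from 458 and 485 CPM to 192 and 199 CPM. In subcluster 4 alone the log2 difference of Zfp36 was -0.61 and did not pass (edgeR adjusted p 0.0561).

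Of 15 genes of the epithelial response to interleukin-17 and of granulocyte support, 9 were tested, 4 rose and 1 fell, beside 13.5% higher and 12.2% lower among all genes tested, with a median of 1.31. Lcn2, an iron-sequestering defence protein, rose from 136 and 103 CPM to 684 and 681 CPM (log2 fold change 2.51, edgeR adjusted p 0.000609). Csf2, the growth factor GM-CSF, went from 2 and 0 UMIs to 94 and 256 UMIs (edgeR adjusted p 0.00174). Pigr, which carries IgA across epithelium, went the other way and fell by 2.75 on the log2 scale (edgeR adjusted p 0.000516), from 485 and 582 CPM to 83.4 and 75.7 CPM.

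**Figure D5:**
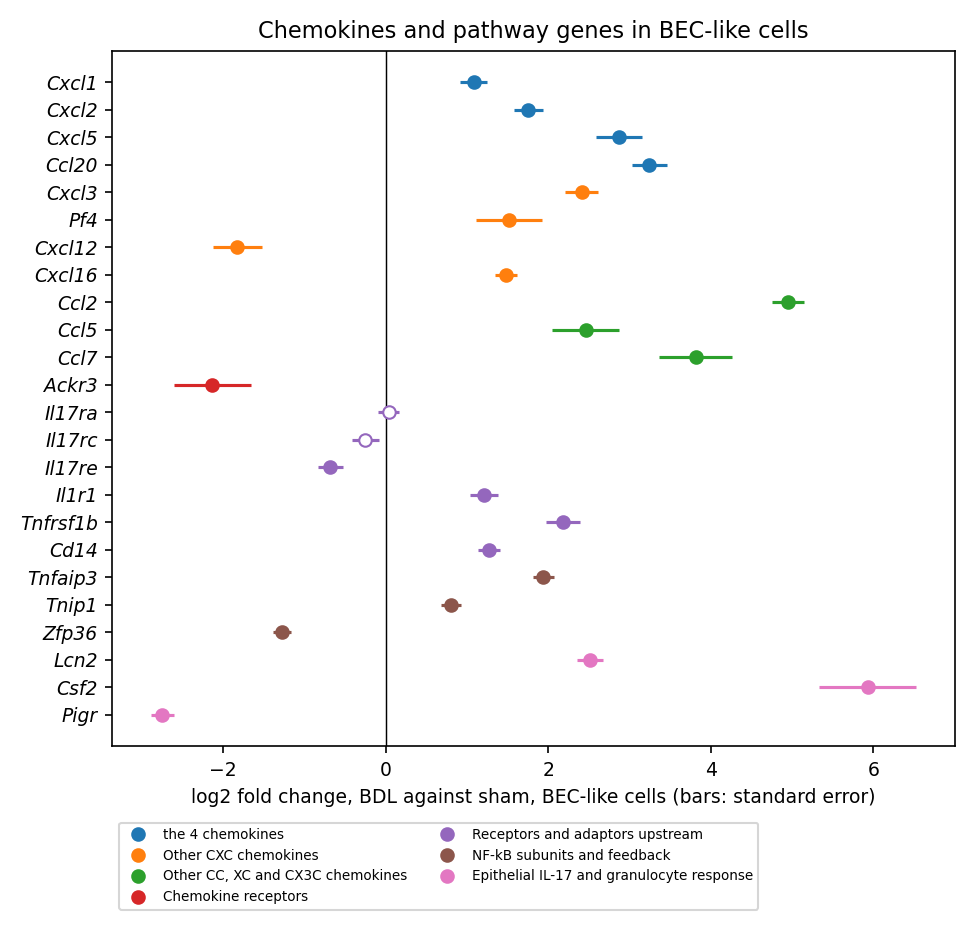
Log2 fold change in BEC-like cells, BDL against sham, with standard error bars, for the 4 chemokines and the named genes of each list (colours). Filled points passed the edgeR test at an adjusted p under 0.05, and the open points are Il17ra and Il17rc. The 4 chemokines lie from 1.09 to 3.24.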

How the data were processed

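Libraries came from a split-pool kit applied to fixed cells, primed with oligo(dT) and random hexamers, per the labels' protocols. UMI counts per gene and cell were deposited without normalization, and per the submitters' processing notes the genome build was GRCm39. The counting software, and how it treated reads shared by the similar genes Cxcl1, Cxcl2 and Cxcl3, are not given in the sources used here. Cells under 500 UMIs or over 20% mitochondrial UMIs were left out. Scrublet called 2 to 4 cells per library, so it did not work as a doublet filter, and cells with markers of more than 1 class were set aside instead. A class needed at least 5 UMIs from at least 2 markers of its list and 3 times the UMIs of any other list that passed. That scoring rule was set after the data were examined. Class sums were tested with edgeR 4.0.16 (TMM, filterByExpr, quasi-likelihood F test, two-sided, Benjamini-Hochberg over all genes tested), with DESeq2 1.42.0 as an alternative. The SE of an edgeR fit was derived as the absolute log2 fold change divided by the square root of the F statistic. On simulated data with log2 changes of 2 and 1 dispersion for all genes, the fits recovered 98.4% (BEC-like, 15376 genes), 91.2% (mesenchymal-like, 7829 genes) and 45.9% (difference between classes, 14507 genes). False calls numbered 5, 6 and 1. Real genes differ in dispersion and smaller changes were not simulated, so these rates need not hold for them. Intervals cover counting error only.

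The members and lists were chosen with earlier results of these data known. Named genes were the 4 chemokines, the called genes of lowest adjusted p in each list (at most 3), and Cxcl3, Ppbp, Cxcr2, Ccr6, Il17ra, Il17rc and Il1r1 whatever their values. RefSeq tables of GRCm38.p6 gave promoter sequence and gene order, and no coordinates were carried between builds.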

Additional observations from a re-analysis of the deposited data

Results flagged for a closer look

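The response to BDL differed between cell classes for 3 of the 4 chemokines, by the edgeR test of the difference itself. The effect in BEC-like cells exceeded that in mesenchymal-like cells by 1.48 on the log2 scale for Cxcl1, by 2.17 for Cxcl2 and by 2.78 for Cxcl5. In each case both BDL libraries were above both sham libraries in BEC-like cells. In mesenchymal-like cells both BDL libraries were below both sham libraries for Cxcl1, though the difference was not called. For Cxcl2 this held with TMM scaling only, since the unscaled levels overlapped, and for Cxcl5 the groups overlapped. The share of all genes that separate so was computed in BEC-like cells only, where 33.6% had both BDL libraries above both sham libraries. Each of the 3 calls was lost under another way of classing the cells: with the stricter marker rule the excess was 0.79 for Cxcl1 (adjusted p = 0.222, edgeR) and 1.25 for Cxcl2 (adjusted p = 0.0679, edgeR), and with classes from clusters it was 0.96 for Cxcl5 (adjusted p = 0.141, edgeR). The libraries held 70 to 353 mesenchymal-like cells.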

How the results depend on the processing

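In BEC-like cells the direction and the call of all 4 chemokines held under every alternative that gave a fit. Leaving out each library in turn moved the log2 fold changes to 0.88 to 1.29 for Cxcl1, 1.55 to 1.97 for Cxcl2, 2.49 to 3.41 for Cxcl5 and 3.03 to 3.47 for Ccl20. The number of genes called in BEC-like cells, 4119 in all, was 1349 without sham replicate 1, 1840 without sham replicate 2 and 5260 without BDL replicate 1. In subcluster 4 alone it was 1783, with no filter on low counts 5777, and under the remaining settings it stayed within 1.5 times of 4119. In mesenchymal-like cells 823 genes were called by edgeR, against 416 by DESeq2, 132 under the stricter marker rule, 1343 without BDL replicate 1 and 0 without sham replicate 2, where 1104 had an unadjusted p under 0.05. For the difference between the classes the count was 1217, against 611 by DESeq2, 449 under the stricter rule and 515 without BDL replicate 2.

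The mesenchymal-like differences, none of them called, changed sign for Cxcl1 under the stricter marker rule (0.26), for Cxcl2 under the stricter rule (0.38) and with classes from clusters (0.12), and for Cxcl5 with thinned sums (-0.068), without the highest 5% of Scrublet scores (-0.41) and without BDL replicate 2 (-0.17). In sham replicate 1 against BDL replicate 1 alone, Cxcl5 was at -0.24. With classes from clusters Cxcl5 was called there, at 1.88, and so was Ccl20, at 2.86, whose excess in BEC-like cells went from 2.50 to 0.23. Leaving out each library gave -0.51 to -0.39 for Cxcl1, -0.75 to -0.27 for Cxcl2 and -0.17 to 0.19 for Cxcl5. The excess of the effect in BEC-like cells lost its call for Cxcl1 (0.79) and Cxcl2 (1.25) under the stricter rule and for Cxcl5 (0.96) with classes from clusters. The causes were not tested. Under the stricter rule Cxcl5 and Ccl20 gave no value in mesenchymal-like cells.

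The difference in the share of positive cells, BDL minus sham, was 19.5 percentage points for Cxcl1, 39.3 for Cxcl2, 30.4 for Cxcl5 and 8.70 for Ccl20. It was 40.2, 56.7, 58.9 and 30.6 without thinning, 27.1, 45.8, 42.7 and 14.7 at 2000 UMIs per cell, and 13.9, 26.3, 9.08 and 2.003 in subcluster 4 alone. Leaving out each library gave 16.5 to 22.5, 36.9 to 41.8, 29.1 to 31.7 and 7.00 to 10.4. Of 267 values of 20 further named genes, 246 kept direction and call, 15 lost the call and 6 changed sign: Il17ra with the filter at 10 CPM (-0.040), with thinned sums (-0.061), without BDL replicate 1 (-0.022, against up to 0.13 without BDL replicate 2) and in subcluster 4 (-0.075), and in subcluster 4 also Il17rc (0.91) and Il17re (0.19). Subcluster 4 and scaling by total UMIs were chosen after the data were examined. No paired analysis was possible because no label holds a replicate number, and those used here follow sample order. The deposited tables contradict the label of 1 library in each group, but the measures checked ran as labelled: subcluster 2 held 59.5% and 59.9% of sham and 0.354% and 0.0778% of BDL BEC-like cells, and hepatocyte markers were at 1144 and 1139 against 153 and 117 CPM. With 2 libraries a group and deeper BDL libraries, group and depth cannot be told apart. Thinning makes the UMI totals equal but does not separate the group from whatever made the BDL cells deeper.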
